A study of Caenorhabditis elegans with 21 samples.

Results

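The comparison described here set animals with the daf-16(m26) allele against wild type animals. It was chosen by genotype label alone and takes 5 of the 21 mRNA-seq libraries of the study, 2 of daf-16(m26) and 3 of wild type. The series also holds daf-16(mgDf50), the pmk-1 alleles km25 and miy7, and the 4 double mutants, and these entered the filter on low values and the shared estimate of the spread, and show where the m26 difference recurred or differed. Samples were whole worms fed OP50 bacteria, held for 24 h as eggs in buffer, and grown for 48 h at 20 °C after plating. The labels name the stage late L4 whereas the methods of the study name young adults. The mutant strain is DR26, in which the labels describe m26 as a splice site mutation, and the strain of the wild type libraries is BPW158. DR26 is listed without an outcross, and BPW158 derives from the crosses that made the pmk-1(miy7) strain. Other differences between these strains therefore cannot be told apart from the effect of m26. Each genotype is 1 strain. The reporting summary of the study calls its libraries biological replicates of large worm populations, and the labels name no separate cultures, so the p-values measure the spread between these libraries.

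DAF-16 is the FOXO transcription factor at the end of the C. elegans insulin pathway. When the insulin receptor DAF-2 signals through the kinases AGE-1 and AKT-1, DAF-16 is held in the cytoplasm, and when signalling falls it enters the nucleus and drives genes of stress resistance, metabolism and longevity. In well-fed animals with an intact receptor most DAF-16 is cytoplasmic, and the gene is best known for its part in the long life and dauer formation of daf-2 mutants.

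Values are TPM, a share of each library's transcripts corrected for gene length, as the authors deposited them. Every library summed to 1000000 TPM, so its depth and the counting error of a value are unknown. Of the 22840 genes listed, 12843 averaged 1 TPM or more over the 21 libraries and were tested. Differences are log2 fold changes of TPM + 1, a scale that understates the change of genes near or below 1 TPM. Calls rest on limma with Benjamini-Hochberg adjustment over all genes tested, at a threshold of 0.1. The main axis of variation held 52.3% of the variance. It placed the daf-16(m26) libraries at 25.9 and 8.82, against -21.1, -55.2 and 2.78 for wild type. Wild type replicate 2 was thus the furthest of its group, and pmk-1(km25) replicate 2 lay beyond it at -60.7. Replicate 2 lay below replicate 1 on this axis in 9 of 9 genotypes.

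The daf-16 transcript was not lower in the mutant. It reached 57.2 and 59.5 TPM in daf-16(m26), against 44.2, 46.4 and 44.2 TPM in wild type, a difference of 0.37 ± 0.10 (SE) with an adjusted p of 0.292 in limma. The groups did not overlap. In the 6 libraries that carry m26, alone or with a pmk-1 allele, daf-16 lay between 55.01 and 61.8 TPM, against 41.5 to 47.4 TPM in the 9 libraries with intact daf-16. The daf-16(mgDf50) animals, which carry a deletion allele, had 6.95 and 6.65 TPM. The pmk-1 transcript, the p38 kinase gene mutated in the other strains, had 15.8 and 13.7 TPM in daf-16(m26), against 14.3, 14.1 and 15.3 TPM in wild type.

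In the fit of all 9 genotypes, which has no term for the replicate number, few genes passed the test in daf-16(m26). Of the 12843 genes, 25 were called (0.195%), 15 of them higher (0.117%) and 10 lower (0.0779%). An unadjusted p below 0.05 was reached by 928 genes (7.23%), 533 higher and 395 lower. Libraries did not overlap for 2047 genes higher in the mutant (15.9%) and 2641 lower (20.6%), and all 25 called genes were among them. The median gene differed by -0.04. The count rested on single libraries: it was 13 without wild type replicate 2, 14 without daf-16(m26) replicate 1 and 66 without daf-16(m26) replicate 2. A fit of only the 2 genotypes called 69 genes, 16 of the 25 among them. The count was far larger with the replicate number as a factor, as given in the last section. C36C5.15, F59C6.18 and F35F10.13 averaged 0.582, 0.403 and 0.92 TPM over the libraries without m26 and passed the filter only through the m26-carrying libraries, as did 71 of all genes tested, so these 3 calls are given as values and support nothing further.

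**Figure D1:**
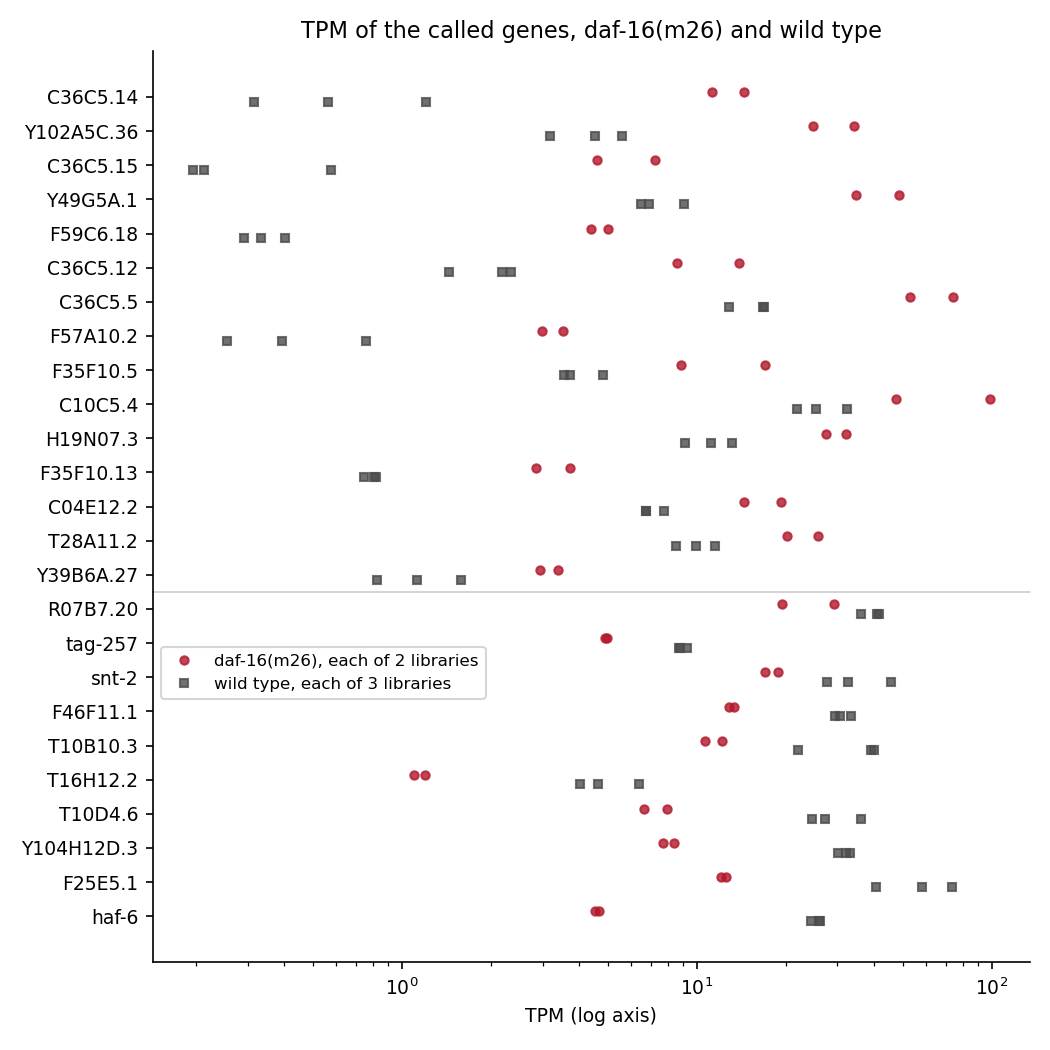
TPM (log axis) of the 25 called genes in each of the 2 daf-16(m26) libraries (circles, drawn above) and each of the 3 wild type libraries (squares, drawn below), genes ordered by fold change with the 15 higher genes above the grey line. No mutant library overlaps a wild type library for any of these genes.

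The gene with the strongest fall was haf-6, which encodes a half-molecule ABC transporter known to be needed for efficient RNA interference. It had 4.505 and 4.66 TPM in daf-16(m26), against 26.02, 26.2 and 24.3 TPM in wild type (log2 fold change -2.25 ± 0.12 SE, adjusted p = 5.13e-08 in limma). The replicates of each group were close to each other and the groups far apart. All 6 m26-carrying libraries lay between 4.28 and 5.78 TPM, against 22.4 to 26.6 TPM in the 15 libraries without m26. The libraries of daf-16(mgDf50) were on the side of wild type, with 22.9 and 24.5 TPM, and the test between the alleles gave -2.15 with an adjusted p of 1.79e-07. On the reference annotation haf-6 lies on chromosome I with 1928 coding genes between it and daf-16. It overlaps Y48G8AL.7 on the opposite strand, and whether the counting used strand is not given in the sources used here.

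F46F11.1 and T16H12.2 had the same pattern. F46F11.1, also on chromosome I, had 12.83 and 13.4 TPM in daf-16(m26), against 30.6, 33.3 and 29.4 TPM in wild type (-1.18 ± 0.13 SE, adjusted p = 0.000373 in limma). Its 6 m26-carrying libraries spanned 10.6 to 13.6 TPM, against 24.1 to 33.3 TPM in the 15 others. T16H12.2, on chromosome III, was a low gene with 1.203 and 1.101 TPM in daf-16(m26), against 4.03, 6.35 and 4.63 TPM in wild type (-1.46 ± 0.24 SE, adjusted p = 0.0188 in limma). It too separated all m26-carrying libraries, at 1.101 to 1.703 TPM, against 3.28 to 7.64 TPM in the others. For both genes daf-16(mgDf50) stood with wild type, and the difference between the alleles passed the test.

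Y104H12D.3, named spl-3 in the reference and a member of the sphingosine-1-phosphate lyase family, fell in one pmk-1 background but not in the other. It had 7.66 and 8.34 TPM in daf-16(m26), against 32.1, 32.97 and 30.1 TPM in wild type (-1.86 ± 0.10 SE, adjusted p = 5.13e-08 in limma). In daf-16(m26);pmk-1(km25) it was as low, at 7.65 and 9.14 TPM, against 32.3, 32.3 and 30.6 TPM in pmk-1(km25). In daf-16(m26);pmk-1(miy7) it stood at 29.7 and 32.3 TPM, against 32.9, 31.2 and 33.7 TPM in pmk-1(miy7), and the m26 difference with minus without miy7 was 1.79 with an adjusted p of 1.9e-05 in limma. The gene lies on chromosome IV, the chromosome of pmk-1, with 1287 coding genes between them. It overlaps Y104H12D.6, so reads of this pair may be shared.

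For another 4 of the 10 lower genes the wild type libraries stood above every other genotype. F25E5.1 had 12.1 and 12.5 TPM in daf-16(m26), against 40.4, 73.4 and 58.1 TPM in wild type (-2.09 ± 0.20 SE, adjusted p = 8.16e-05 in limma). All 18 libraries of the other genotypes were below wild type, at 9.70 to 21.2 TPM. The same held for snt-2, a synaptotagmin gene of vesicle release, for T10B10.3 (pkhm-2 in the reference) and for the noncoding RNA R07B7.20, whose wild type libraries were above all 18 others. For snt-2 the values were 18.8 and 17.1 TPM in daf-16(m26), against 27.7, 45.5 and 32.6 TPM in wild type (-0.91 ± 0.18 SE, adjusted p = 0.0846). For T10B10.3 they were 10.7 and 12.19 TPM in daf-16(m26), against 40.04, 38.9 and 22 TPM in wild type (-1.43 ± 0.28 SE, adjusted p = 0.074). R07B7.20, at 19.4 and 29.2 TPM in daf-16(m26), against 36.01, 41.6 and 41 TPM in wild type, overlaps pqn-53 on the same strand and cannot be told apart from it. T10D4.6 was high in wild type and in pmk-1(km25), where it had 18.7, 27.7 and 14.9 TPM. It had 6.64 and 7.93 TPM in daf-16(m26), against 24.5, 36.1 and 27.1 TPM in wild type (-1.85 ± 0.30 SE, adjusted p = 0.016). Of the genes tested, 16 (0.125%) had all wild type libraries above all others, and these 4 called genes were among them. The remaining lower gene, tag-257, had 4.95 and 4.89 TPM in daf-16(m26), against 8.79, 9.24 and 8.72 TPM in wild type (-0.74 ± 0.10 SE, adjusted p = 0.00417), and could not be matched to the reference. It had 4.99 and 5.06 TPM in daf-16(m26);pmk-1(km25) but 8.18 and 8.2 TPM in daf-16(m26);pmk-1(miy7). The m26 difference of tag-257 was -0.67 with km25 and -0.13 with miy7, and its interaction with miy7 (0.61) did not pass the test. The daf-16(mgDf50) libraries had 6.2 and 6.01 TPM.

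Among the higher genes, 8 lay close together on chromosome V. They fall within a run of 65 annotated coding genes from C36C5.5 to C04E12.2, of which 24 were expressed highly enough to be tested. The run was chosen after the values were seen, so its count is a description. All 8 called genes in it were higher in daf-16(m26), while the median of the 24 tested genes was 0.22 and 14 of them were higher. Of the 8, C36C5.15 and F35F10.13 passed the filter only through the m26-carrying libraries. No gene was called among the tested genes of the 60 coding genes on either side. The run was cut at its first and last called genes, so this marks no boundary. In the 60 after it, 10 of 16 tested genes were higher with a median of 0.34. There 7 higher genes and 1 lower gene had an unadjusted p below 0.05, beside 9 higher and 3 lower in the run. In the 60 before it, 4 of 7 were higher with a median of 0.06.

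The strongest members were C36C5.14, C36C5.15, C36C5.12 and C36C5.5, which are nearest neighbours with at most 1 coding gene between them. C36C5.14 had 14.4 and 11.24 TPM in daf-16(m26), against 0.562, 0.316 and 1.21 TPM in wild type (3.05 ± 0.29 SE, adjusted p = 8.16e-05 in limma). C36C5.15 had 7.22 and 4.58 TPM in daf-16(m26), against 0.214, 0.195 and 0.577 TPM in wild type (2.36 ± 0.21 SE, adjusted p = 4.09e-05). Both were low in wild type and clearly present in both mutant libraries. C36C5.12 had 13.9 and 8.55 TPM in daf-16(m26), against 2.18, 1.45 and 2.35 TPM in wild type (2.01 ± 0.27 SE). C36C5.5, called exh-1 in the reference, was the most abundant, with 74.2 and 52.9 TPM in daf-16(m26), against 16.9, 12.9 and 16.8 TPM in wild type (1.95 ± 0.29 SE). In all 4 genes replicate 1 of the mutant was the higher one, and the 6 m26-carrying libraries lay above the 15 others. C36C5.15 passed the filter only through those 6, so its separation supports nothing further. Whether reads were divided between similar neighbours was not tested.

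Further along the run stood T28A11.2, F35F10.5, F35F10.13 and C04E12.2. F35F10.5 had 17.1 and 8.81 TPM in daf-16(m26), against 3.72, 3.55 and 4.79 TPM in wild type (1.42 ± 0.26 SE, adjusted p = 0.0535 in limma). T28A11.2 had 25.8 and 20.2 TPM in daf-16(m26), against 9.92, 8.49 and 11.6 TPM in wild type (1.13 ± 0.21 SE). Both separated all m26-carrying libraries from the others. F35F10.13 had 3.71 and 2.85 TPM in daf-16(m26), against 0.806, 0.818 and 0.743 TPM in wild type (1.25 ± 0.23 SE). C04E12.2, which overlaps C04E12.4 on the same strand, had 19.3 and 14.4 TPM in daf-16(m26), against 6.74, 6.74 and 7.74 TPM in wild type (1.13 ± 0.20 SE). Without daf-16(m26) replicate 1 these 4 calls were lost, as were those of C36C5.5 (adjusted p = 0.268 in limma) and C36C5.12 (adjusted p = 0.127), and only C36C5.14 and C36C5.15 of the run stayed called. Just beyond the run, T20D4.11 and T20D4.10 had differences of 1.62 and 1.46 and adjusted p-values of 0.277 and 0.214, values chosen after they were seen.

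**Figure D2:**
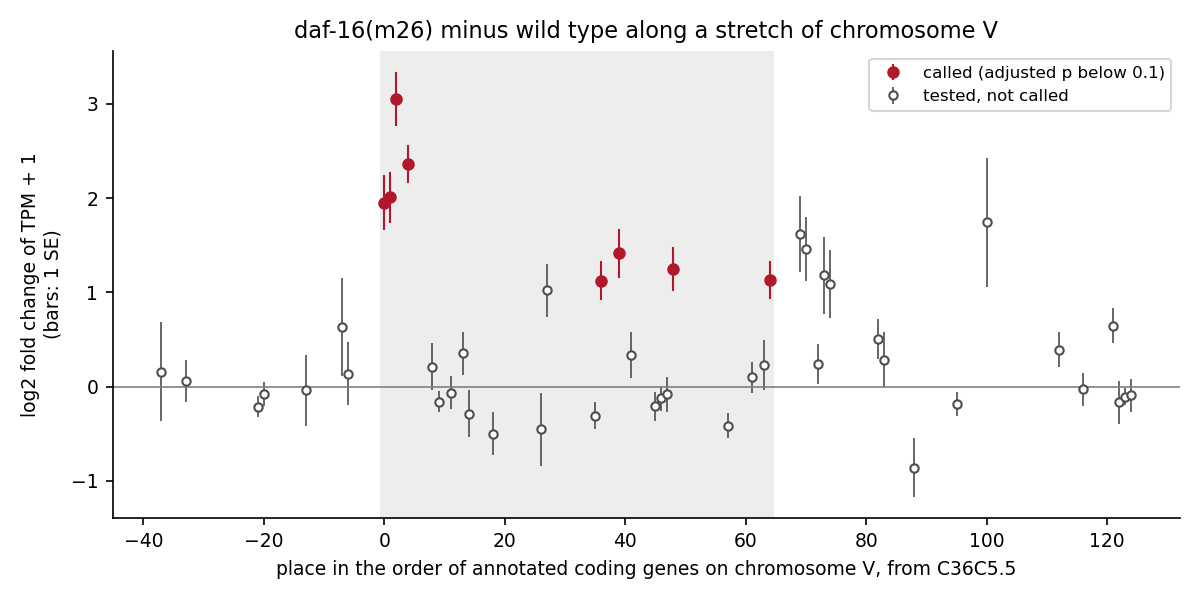
log2 fold change of TPM + 1 (daf-16(m26) minus wild type, bars 1 SE) of the tested genes, placed by their rank in the order of annotated coding genes on chromosome V counted from C36C5.5. Filled points are the 8 called genes inside the shaded run of 65 genes, and open points were tested but not called.

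Chromosome V held 15 of the 24 called genes that could be placed. That was 0.667% of its 2250 tested genes, against 0.0472% to 0.14% on the other chromosomes. The share with an unadjusted p below 0.05 was also highest there, at 10.31%, against 5.39% to 8.64% elsewhere. The 15 called genes include C36C5.15 and F35F10.13, which passed the filter only through the m26-carrying libraries. The called coding genes of chromosome V outside the run were spread out, with at least 364 coding genes between neighbours.

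Of these, Y49G5A.1 separated m26 most fully. It had 34.7 and 48.4 TPM in daf-16(m26), against 9.06, 6.45 and 6.88 TPM in wild type (2.32 ± 0.23 SE, adjusted p = 0.000126 in limma), and 34.7 to 57.3 TPM in all m26-carrying libraries, against 2.81 to 12.97 TPM in the 15 others. Y102A5C.36 had 24.8 and 34.2 TPM in daf-16(m26), against 5.59, 3.17 and 4.53 TPM in wild type (2.499 ± 0.24 SE, adjusted p = 8.16e-05). Here both daf-16 alleles were high, with 44.2 and 54.7 TPM in daf-16(mgDf50), and the alleles did not pass the test of their difference (-0.74, adjusted p = 1.0). H19N07.3, named nhj-1 in the reference and known for a role in end joining of broken DNA, had 32.2 and 27.4 TPM in daf-16(m26), against 11.16, 9.11 and 13.1 TPM in wild type (1.35 ± 0.16 SE, adjusted p = 0.000643). Without any daf-16 mutation, pmk-1(km25) had 22.7, 25.8 and 26.97 TPM, above all wild type libraries and below both daf-16(m26) libraries. F57A10.2 and Y39B6A.27, both under 4 TPM in every library of daf-16(m26) and wild type, differed by 1.55 ± 0.31 and 0.94 ± 0.16 (SE). Without any daf-16 mutation, F57A10.2 had 3.29, 1.06 and 3.28 TPM in pmk-1(km25), and its m26 difference in that background was 0.47. The call of F57A10.2 was lost with no filter and with median rescaling.

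Elsewhere, F59C6.18 on chromosome I had 5.02 and 4.39 TPM in daf-16(m26), against 0.400, 0.293 and 0.332 TPM in wild type (2.09 ± 0.25 SE, adjusted p = 0.000953 in limma). It was the called gene nearest to daf-16, with 70 coding genes between them. The m26-carrying libraries had 2.45 to 11.19 TPM, against 0 to 0.841 TPM in the others. F59C6.18 passed the filter only through the m26-carrying libraries, so its call and separation support nothing further. C10C5.4 on chromosome IV, of the aminoacylase family, had 98.6 and 47.5 TPM in daf-16(m26), against 32.3, 21.8 and 25.4 TPM in wild type (1.36 ± 0.25 SE, adjusted p = 0.0541). Its mutant replicates differed by more than 2-fold from each other, and the call was lost without wild type replicate 2 or 3, without daf-16(m26) replicate 1 and in a fit of only the 2 genotypes.

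The same allele was measured in 2 further backgrounds, whose libraries do not enter the fold changes against wild type but share its filter and its estimate of the spread. In daf-16(m26);pmk-1(km25) against pmk-1(km25), 23 genes were called (0.179%), and in daf-16(m26);pmk-1(miy7) against pmk-1(miy7), 14 were called (0.109%). Of the 25 genes, 15 were called in the same direction in the km25 background, 11 in the miy7 background, 10 in both and 9 in neither. The sign of the difference was the same for 23 of 25 in km25 and for 25 of 25 in miy7, beside 53.6% and 84.0% of all genes tested. The 10 genes called in all 3 backgrounds were haf-6, F46F11.1, T16H12.2, C36C5.5, C36C5.12, C36C5.14, C36C5.15, Y49G5A.1, Y102A5C.36 and F59C6.18. Their log2 fold changes in the km25 background ran from -2.09 for haf-6 to 3.42 for Y49G5A.1. Of the 10, C36C5.15 and F59C6.18 passed the filter only through the m26-carrying libraries, as did F35F10.13 among the 15. The recurrence of these genes supports nothing further.

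**Figure D3:**
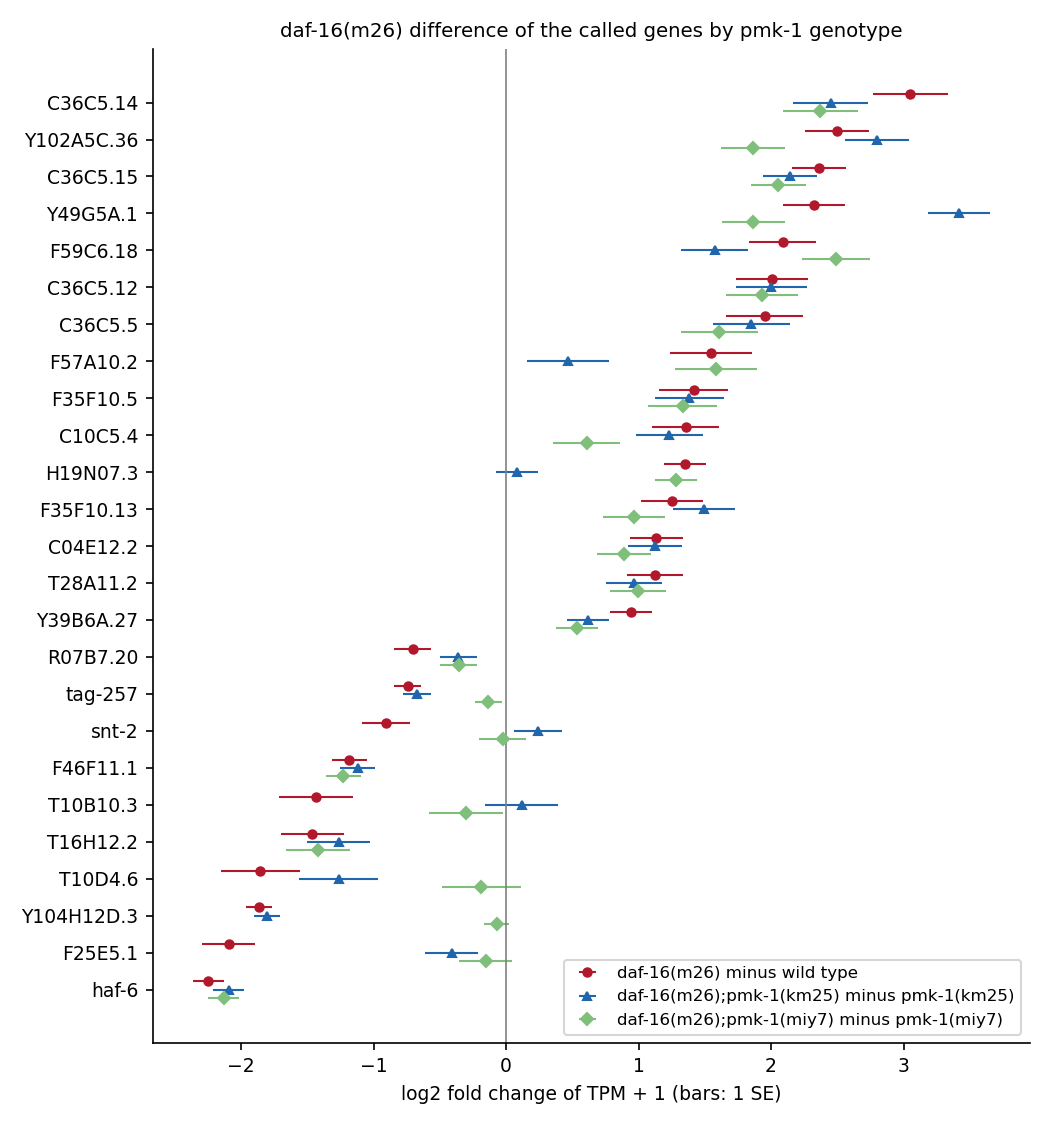
log2 fold change of TPM + 1 (bars 1 SE) of the 25 called genes in daf-16(m26) minus wild type (circles), daf-16(m26);pmk-1(km25) minus pmk-1(km25) (triangles) and daf-16(m26);pmk-1(miy7) minus pmk-1(miy7) (diamonds). haf-6 lies between -2.25 and -2.09 in all 3, while snt-2, T10B10.3 and F25E5.1 lie between -0.41 and 0.24 in both pmk-1 backgrounds.

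The difference between backgrounds passed the test for few genes. The interaction with km25 called 2 genes of all tested (0.0156%), T03D3.5 and ZC317.7, neither of which was called against wild type. The interaction with miy7 called 3 genes (0.0234%), of which Y104H12D.3 and F25E5.1 were among the 25. For H19N07.3 the m26 difference was 0.08 in the km25 background and 1.28 in the miy7 background, and its interaction with km25 had an adjusted p of 0.16.

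Averaging the m26 difference over the wild type, km25 and miy7 backgrounds, a fit added after seeing the data that contains the wild type comparison, called 111 genes (0.864%), 60 higher and 51 lower. It kept 23 of the 25 genes, without snt-2 and T10B10.3. In this average daf-16 itself was higher by 0.40 ± 0.06 (SE, adjusted p = 0.00184 in limma) and sod-3 lower by -0.70 ± 0.13 (SE, adjusted p = 0.0292). More genes in and beside the chromosome V run were called, T28A11.16 inside it with 1.01, and T20D4.11 and T20D4.10 just beyond it with 1.49 and 1.26. Over all genes tested, 11 (0.0856%) had the 6 m26-carrying libraries above the 15 others and 10 (0.0779%) had them below. Of these, 8 higher and 3 lower genes were among the 25. The 8 include C36C5.15 and F59C6.18, which passed the filter only through the m26-carrying libraries.

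Set directly against daf-16(mgDf50), daf-16(m26) called 29 genes (0.226%). This test shares the m26 libraries with the comparison against wild type, so only values are set side by side. Y49G5A.1 differed between the alleles, but daf-16(mgDf50) had 2.92 and 4.98 TPM, below all wild type libraries. Of the 25 genes, daf-16(mgDf50) lay near wild type for haf-6, F46F11.1, T16H12.2, Y104H12D.3, F59C6.18, F35F10.5 and Y39B6A.27, each of which differed between the alleles. It lay near daf-16(m26) for F25E5.1, with 9.70 and 13.4 TPM, for T10D4.6, with 6.67 and 8.22 TPM, for snt-2, with 18.1 and 17.5 TPM, and for H19N07.3, with 26.8 and 27.6 TPM. The comparison of daf-16(mgDf50) with wild type uses the same wild type libraries.

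None of the genes known to need DAF-16 was called, beside 0.195% of all genes tested. At that share the list is too short for an absence of calls to be informative. This holds for every other gene list named below. Of 36 tested in this list, 17 were higher and 19 lower in daf-16(m26), with a median of -0.05, beside -0.04 for all genes. An unadjusted p below 0.05 was reached by 1 higher gene and 7 lower genes of the 36. Over all 12843 genes tested it was reached by 533 higher and 395 lower genes, so lower genes were more frequent in this list in this comparison. The lower genes include pud-3 and pud-4, both highest in wild type replicate 2. By the same measure the list had 0 higher and 2 lower genes in the km25 background, and 0 higher and 3 lower in the miy7 background. In daf-16(mgDf50) against the same wild type libraries it had 7 higher and 5 lower genes, with a median of 0.167. The list was fixed from general knowledge with earlier results of these data known.

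The gene most used as a reporter of DAF-16 activity, sod-3, which encodes a mitochondrial superoxide dismutase, had 2.23 and 2.59 TPM in daf-16(m26), against 4.94, 3.28 and 6.57 TPM in wild type (-0.76 ± 0.23 SE, adjusted p = 0.443 in limma). It was low in every library of the mutant. The 6 m26-carrying libraries spanned 2.23 to 3.09 TPM, against 3.28 to 7.205 TPM in the 9 with intact daf-16. The difference was -0.71 in the km25 background and -0.62 in the miy7 background. lys-7, a lysozyme of the defence against bacteria, had 13.3 and 12.4 TPM in daf-16(m26), against 26.3, 23.3 and 22.9 TPM in wild type (-0.86 ± 0.31 SE, adjusted p = 0.569), but differed by only -0.28 and -0.31 in the pmk-1 backgrounds. fat-5, a fatty acid desaturase, had 3.81 and 4.20 TPM in daf-16(m26), against 10.7, 8.09 and 10.9 TPM in wild type (-1.11 ± 0.45 SE, adjusted p = 0.604).

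Other classical targets showed no such difference. mtl-2, a metallothionein, had 99.2 and 93.9 TPM in daf-16(m26), against 101.7, 104.4 and 99.7 TPM in wild type. The peroxisomal catalase ctl-2 differed by -0.10, the small heat shock gene hsp-12.6 by 0.07 and dod-3 by 0.02. mtl-1 was under the filter, with 0.111 and 0 TPM in daf-16(m26), against 1.03, 0.210 and 0.119 TPM in wild type. The largest negative values were those of pud-3 and pud-4, at -1.78 ± 0.80 and -1.66 ± 0.73 (SE), where wild type replicate 2 was the highest library. On the other side sodh-1, an alcohol dehydrogenase, had 11.4 and 6.58 TPM in daf-16(m26), against 5.24, 3.80 and 4.86 TPM in wild type (0.79 ± 0.30 SE, adjusted p = 0.604).

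**Figure D4:**
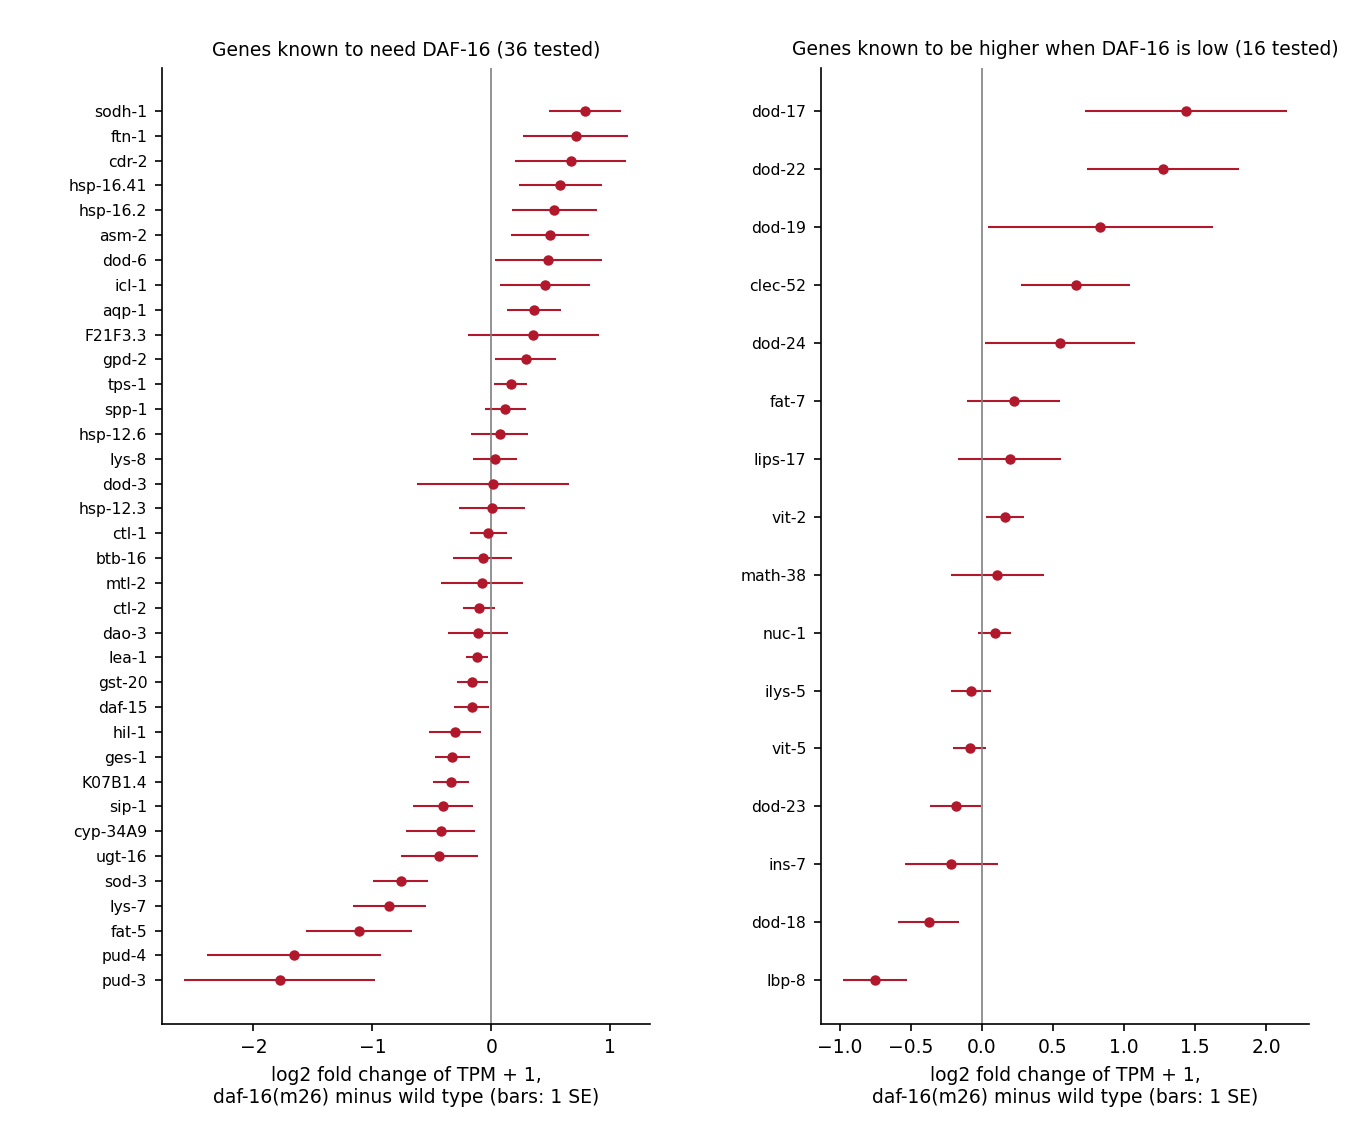
log2 fold change of TPM + 1 (daf-16(m26) minus wild type, bars 1 SE) of 36 tested genes known to need DAF-16 (left) and of 16 tested genes known to be higher when DAF-16 is low (right). Values scatter on both sides of 0, from -1.78 for pud-3 to 0.79 for sodh-1 on the left and from -0.75 for lbp-8 to 1.44 for dod-17 on the right.

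Genes known to be higher when DAF-16 is low also scattered in both directions. Of 16 tested, 10 were higher and 6 lower with a median of 0.14, none was called in limma and 1 in each direction had an unadjusted p below 0.05. The CUB-like gene dod-22 had 7.76 and 3.60 TPM in daf-16(m26), against 1.63, 0.558 and 3.43 TPM in wild type (1.27 ± 0.54 SE). dod-17 had 34.1 and 17.96 TPM in daf-16(m26), against 8.32, 3.96 and 17.7 TPM in wild type (1.44 ± 0.71 SE). In both genes the lower mutant library was barely above the highest wild type library. lbp-8, a lipid binding protein of the lysosome, was lower, with 4.21 and 5.403 TPM in daf-16(m26), against 9.93, 7.57 and 8.79 TPM in wild type (-0.75 ± 0.22 SE, adjusted p = 0.427), but differed by 0.04 and -0.07 in the pmk-1 backgrounds.

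Differences of the insulin pathway components ran from -0.345 to 0.68. Of 21 tested, none was called, beside 0.195% of all genes tested, so the absence of calls is not informative. Only daf-16 had an unadjusted p below 0.05. Values were higher for 6 and lower for 15, with a median of -0.15, beside -0.04 for all genes. The receptor gene daf-2 had 19.7 and 20.5 TPM in daf-16(m26), against 22.8, 24.8 and 18.8 TPM in wild type. The groups overlapped. The PI3 kinase gene age-1 differed by -0.23 ± 0.23, the kinase gene akt-1 by -0.27 ± 0.24 and the phosphatase gene daf-18 by -0.34 ± 0.32 (SE). ftt-2, a 14-3-3 protein gene whose product binds DAF-16, differed by 0.03 here but fell by 0.74 in the km25 background (adjusted p = 0.083 in limma). In that background par-5 of the same list was higher by 0.30 ± 0.09 (SE). Whether reads were divided between similar genes was not tested. Of 17 insulin-like peptide genes tested, 11 were higher and none was called or had an unadjusted p below 0.05. ins-6 had the lowest p of them, with 3.73 and 2.36 TPM in daf-16(m26), against 1.31, 1.2 and 0.801 TPM in wild type.

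The broadest difference was in the genes of the cuticle, the collagen coat that worms renew at each moult. Of 111 tested cuticle collagen genes, 98 were higher and 13 lower in daf-16(m26), with a median of 1.26, beside -0.04 for all genes. None was called in limma, while 64 higher genes and 1 lower gene had an unadjusted p below 0.05, or 65 of 111 beside 7.23% of all genes. The mean log2(TPM + 1) of the collagen genes was 5.52 and 5.123 in daf-16(m26), against 4.14, 3.57 and 4.12 in wild type. These levels did not overlap, but replicates of other genotypes were as far apart. The mean was 4.888, 3.295 and 4.017 in pmk-1(km25), and 5.555 and 3.905 in daf-16(mgDf50). Its pooled SD between replicates was 0.56. The collagen genes thus moved together between replicates of 1 genotype. In daf-16(mgDf50) against wild type 94 of the 111 were higher, with a median of 0.685. The summed collagen TPM was less separated, at 42600 and 41100 in daf-16(m26), against 37430, 28680 and 40200 in wild type. The collagen median was 0.26 in the km25 background and 0.71 in the miy7 background, beside 0.06 and -0.02 for all genes.

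Genes of the L4 cuticle and moult list and of the adult cuticle list mostly had higher values. The medians were 0.77 over 11 L4 genes and 1.64 over 5 adult genes. The L4 list was not limited to collagens. col-38, of the L4 list, had 34.4 and 18.7 TPM in daf-16(m26), against 5.85, 2.91 and 4.40 TPM in wild type (2.33 ± 0.58 SE, adjusted p = 0.269 in limma). col-157 had 9.93 and 5.119 TPM in daf-16(m26), against 0.757, 0.505 and 1.12 TPM in wild type (2.20 ± 0.53 SE, adjusted p = 0.25). Both mutant libraries were above all wild type libraries, and replicate 1 was the higher one each time. The adult collagen gene col-7 had 34.5 and 24.9 TPM in daf-16(m26), against 2.48, 0.478 and 4.26 TPM in wild type (3.34 ± 1.29 SE), and col-62 had 25.5 and 18.1 TPM in daf-16(m26), against 1.90, 0.604 and 2.77 TPM in wild type (3.11 ± 1.16 SE). col-19, the most abundant adult collagen of the list, hardly differed, with 2281 and 2113 TPM in daf-16(m26), against 2191, 1739 and 2290 TPM in wild type. The struts of the adult cuticle need bli-2, which had 5.88 and 3.92 TPM in daf-16(m26), against 1.37, 0.665 and 0.667 TPM in wild type.

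**Figure D5:**
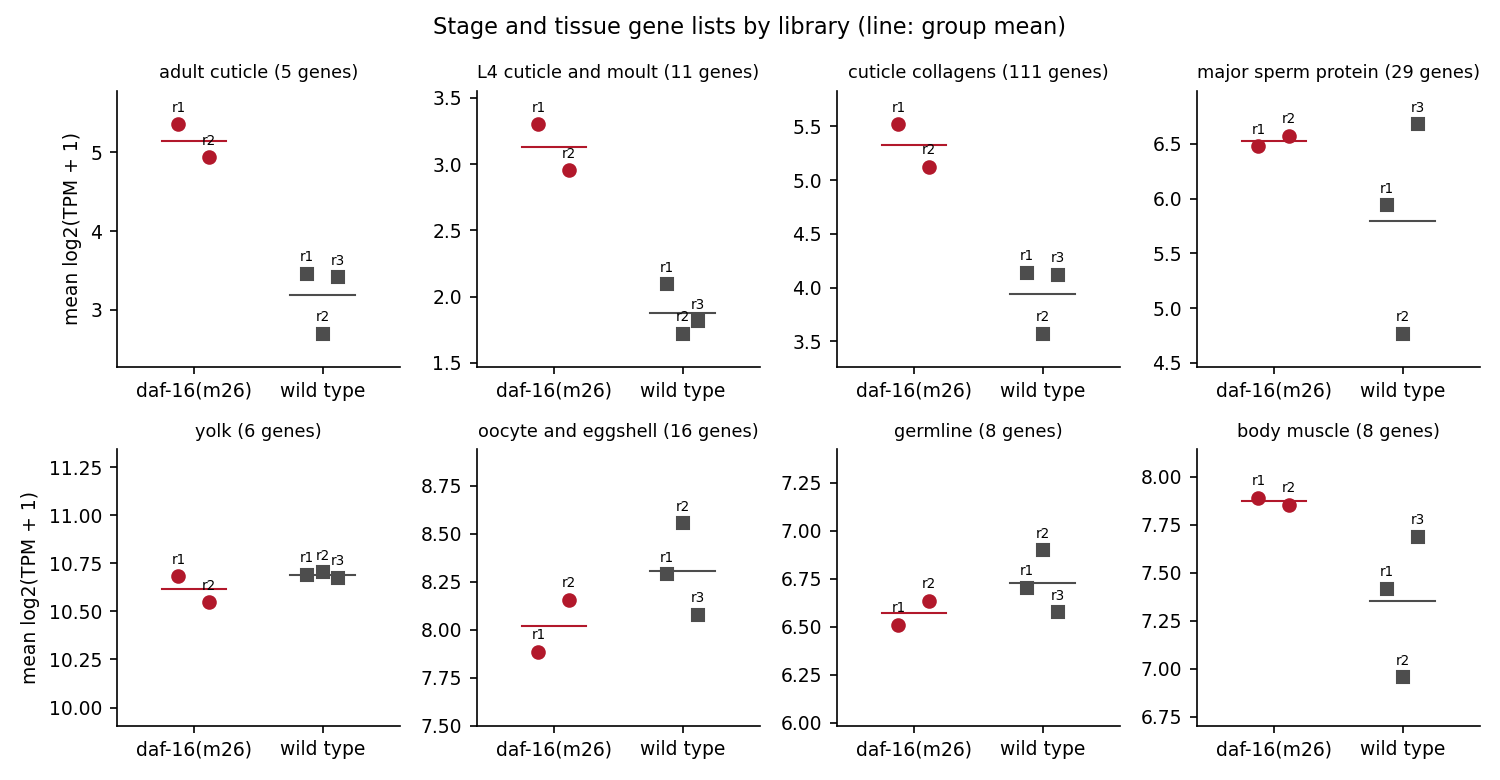
Mean log2(TPM + 1) of 8 stage and tissue gene lists in the 2 daf-16(m26) libraries (left in each panel) and the 3 wild type libraries (right), with replicate numbers beside the points and the group mean as a line. The 3 cuticle lists and the body muscle list separate the groups, the sperm, yolk, oocyte and germline lists overlap, and wild type replicate 2 is at one end of the sperm, oocyte, germline and muscle lists.

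The sperm, yolk, oocyte and germline lists overlapped between the groups. All 29 tested major sperm protein genes were higher with a median of 0.74, but none had an unadjusted p below 0.05, and their summed TPM was 4845 and 5194 in daf-16(m26), against 3339, 1453 and 5490 in wild type. Without wild type replicate 2 the sperm median was 0.22. The yolk genes, which adult intestine makes in bulk, summed to 13800 and 12640 TPM in daf-16(m26), against 12940, 12810 and 12920 TPM in wild type. All 16 oocyte and eggshell genes were lower, with a median of -0.26, and all 8 germline genes were lower, with a median of -0.14. The body muscle list did separate the groups, with a mean log2(TPM + 1) of 7.89 and 7.85 in daf-16(m26), against 7.42, 6.96 and 7.69 in wild type. All 8 of its genes were higher, with a median of 0.52 and none called, and unc-15, the paramyosin gene, had 350 and 383 TPM in daf-16(m26), against 232, 153 and 283 TPM in wild type. Within pmk-1(km25) the muscle mean ran from 6.96 to 8.31. The pharynx list of 4 genes, all higher, also separated the groups, at 2.52 and 2.41 in daf-16(m26), against 2.07, 1.93 and 1.81 in wild type. In whole worms, fewer cells of a tissue and less RNA per cell cannot be told apart, and a difference in age at collection cannot be told apart from genotype. All 25 genes were called again with the sperm, yolk or collagen mean of each library as a covariate. These means come from the same libraries, and the collagen fit called 3185 genes, so this does not separate stage from genotype.

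Neuropeptide genes mostly had higher values as well. Of 66 tested flp and nlp genes, 63 were higher with a median of 0.60, 9 had an unadjusted p below 0.05 and none was called. flp-33 had the lowest p, with 7.65 and 6.40 TPM in daf-16(m26), against 2.01, 1.01 and 1.56 TPM in wild type (1.68 ± 0.45 SE, adjusted p = 0.317 in limma). In the km25 background 43 of the 66 were higher with a median of 0.11, no larger a share than the 65.6% of all genes, and in the miy7 background 59 were higher with a median of 0.48, beside 45.5% of all genes. Of 9 general neuron markers 7 were higher with a median of 0.29, although unc-119, the one with the lowest p, was at -0.49 ± 0.15 (SE).

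Of 32 proteasome subunit genes, 31 had lower values with a median of -0.21, none was called and no subunit had an unadjusted p below 0.05. Ribosomal protein genes were higher for 62 of 76, with a median of 0.11, 12 with an unadjusted p below 0.05 and none called. In the km25 background the proteasome and ribosomal medians were -0.03 and -0.05. In the miy7 background 31 of 32 proteasome genes were again lower, with a median of -0.14, and the ribosomal median was 0.01.

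Infection response genes mostly had higher values and cytochrome P450 genes mostly lower ones. Among infection response and CUB-like genes, which include targets of the PMK-1 pathway, 12 of 14 were higher with a median of 0.57, 3 had an unadjusted p below 0.05 and none was called in limma. In the km25 and miy7 backgrounds 12 and 13 of the 14 were higher, beside 65.6% and 45.5% of all genes. The 12 include dod-22, which had 0 TPM in every library of the km25 comparison and so did not differ there. T24B8.5, the usual reporter of PMK-1 activity, had 28.7 and 28.04 TPM in daf-16(m26), against 19.5, 14.5 and 23.4 TPM in wild type (0.57 ± 0.22 SE, adjusted p = 0.602 in limma). Its difference was 0.64 and 0.63 in the km25 and miy7 backgrounds, and it was called in the average over the 3 (adjusted p = 0.0451). irg-1 had 7.63 and 4.23 TPM in daf-16(m26), against 0.533, 0.711 and 2.08 TPM in wild type, but differed by -0.49 in the km25 background. spp-14, a saposin-like gene, had 1106 and 854 TPM in daf-16(m26), against 630, 579 and 642 TPM in wild type (0.66 ± 0.16 SE, adjusted p = 0.256). Of 42 cytochrome P450 genes, 30 were lower with a median of -0.17, 2 higher and 9 lower genes had an unadjusted p below 0.05 and none was called. Among these cyp-35A4 had 1.11 and 0.337 TPM in daf-16(m26), against 3.69, 4.108 and 1.96 TPM in wild type. dhs-7, a short-chain dehydrogenase gene, had 4.08 and 4.15 TPM in daf-16(m26), against 7.25, 6.21 and 8.06 TPM in wild type (-0.67 ± 0.17 SE, adjusted p = 0.269), and its 6 m26-carrying libraries lay below the 15 others.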

How the data were processed

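Poly-A RNA of whole worms was sequenced from TruSeq stranded libraries on an Illumina NextSeq. The submitters' processing notes name FastQC 0.11.2, STAR 2.5.3a, Picard 2.10, featureCounts, Subread, edgeR and the ce10 build. The authors deposited TPM values, which keep no depth, so no interval from counting is given. The 8 deposited tables of edgeR comparisons hold the authors' fold changes and p-values and were not used. The members and gene lists were chosen with earlier results of these data known.

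log2(TPM + 1) of the 12843 genes averaging 1 TPM or more was fitted with limma 3.58.1 (R 4.3.3; intensity trend and robust estimation) in 1 model of 9 genotypes and 21 libraries, which share 1 estimate of the spread. The fit was tested on simulated data. Tables and figures used Python 3.11.15, pandas 2.3.3, numpy 2.4.6 and matplotlib 3.10.9. Gene names, chromosomes and gene order came from the WBcel235 annotation, in which 12611 of the tested genes were found by name, and no coordinates were used because the build differs.

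The genes named are daf-16 and pmk-1, the called genes whose libraries did not overlap, up to 12 in each direction by fold change, and up to 4 called members of each list or, where none was called, up to 2 by lowest p. DAF-16 target and stage genes may be named in any case. F35F10.13 and the other higher genes past the first 12, and other exceptions, were chosen after their values were seen. Alternatives covered the pseudocount (0.1 or 0.5), the filter, median rescaling, leaving stage genes out, stage covariates, plain limma, the threshold (0.05), the replicate block, fits restricted to the compared genotypes, and each library left out in turn. The description of promoter motifs that was planned was not run.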

Additional observations from a re-analysis of the deposited data

Results flagged for a closer look

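The daf-16 alleles differed for 10 of the 25 called genes by the test of daf-16(m26) minus daf-16(mgDf50) in limma with Benjamini-Hochberg adjustment. On the log2 scale m26 was above mgDf50 by 3.12 for Y49G5A.1, 2.38 for F59C6.18, 1.88 for C36C5.15, 1.80 for C36C5.14, 1.55 for F35F10.5 and 0.90 for Y39B6A.27. It was below mgDf50 for haf-6 (-2.15), Y104H12D.3 (-1.93), T16H12.2 (-1.72) and F46F11.1 (-1.21). Each of these adjusted p-values was at most 0.053. This test shares its m26 libraries with the comparison against wild type. C36C5.15 and F59C6.18 passed the filter only through the m26-carrying libraries, so their values support nothing further.

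The m26 difference itself differed with the pmk-1 genotype for 5 genes by the interaction test. For T03D3.5 it was 1.38 with km25 and -0.69 without, an interaction of 2.07. The gene had 6.56 and 7.18 TPM in daf-16(m26), against 12.1, 11.5 and 11.6 TPM in wild type, and 18.4 and 22.2 TPM in daf-16(m26);pmk-1(km25), against 6.73, 8.19 and 6.71 TPM in pmk-1(km25). For ZC317.7 it was 1.77 with km25 and -0.99 without, an interaction of 2.76. The fall of Y104H12D.3 was all but lost with miy7, at -0.07 with miy7 and -1.86 without, an interaction of 1.79. For F25E5.1, whose level in wild type alone was high, it was -0.15 with miy7 and -2.09 without, an interaction of 1.94. For grd-15 the interaction with miy7 was -3.63, set by pmk-1(miy7) itself, which had 14.7, 13.9 and 10.9 TPM, while daf-16(m26);pmk-1(miy7) had 0.698 and 0.738 TPM, daf-16(m26) 1.28 and 0.318 TPM and wild type 0.208, 0.152 and 0.0862 TPM.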

How the results depend on the processing

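The 25 calls of daf-16(m26) against wild type became 47 with no filter, 42 with the sperm covariate, 69 in a fit of only the genotypes compared, 3185 with the collagen covariate and 111 for the average over 3 pmk-1 genotypes, the last 2 added after seeing the data. Of the 25 genes, 16 stayed called in the fit of only the genotypes compared and 25 under each of the 3 covariates. Against daf-16(mgDf50) the 29 calls became 58 with no filter, 18 at a mean of at least 5 TPM, 323 with the sperm covariate, 3325 with the collagen covariate and 10 with only the genotypes compared. In the km25 background the 23 calls became 35, 66 and 1568 with no filter, the sperm and the collagen covariate, and 0 with only the genotypes compared in limma, where 116 genes had an unadjusted p below 0.05. In the miy7 background the 14 calls became 27 with no filter, 9 at a mean of at least 5 TPM, 29 with the sperm and 865 with the collagen covariate. The interaction with km25, 2 genes, became 7 with no filter, 4 with median rescaling, 7 with the sperm covariate, 6 with the collagen covariate and 1 with only the genotypes compared. The interaction with miy7, 3 genes, became 8 with no filter, 5 with median rescaling, 6 with the sperm, 5 with the yolk and 6 with the collagen covariate. The cause of these shifts was not tested. Leaving out a library gave 13 to 66 calls against wild type, 17 to 31 against daf-16(mgDf50), 7 to 29 in the km25 background, 10 to 14 in the miy7 background, 0 to 5 for the interaction with km25 (89 genes with an unadjusted p below 0.05 at 0) and 2 to 3 for that with miy7. Where this left 1 library, it was assumed to vary like the others. By construction of the covariate, the sperm median reversed to -0.00358 with the sperm covariate and the collagen median to -0.0328 with the collagen covariate. The sperm median was -0.47 with the collagen covariate.

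With the replicate block, the replicate number as an added factor, 2977 genes were called against wild type, 1400 higher and 1577 lower, 65 against daf-16(mgDf50), 41 in the km25 background, 29 in the miy7 background and 5 in each interaction. daf-16(m26) and wild type share only 2 replicate numbers, and no label says that a number marks a shared batch. Deviations of same-numbered libraries correlated at 0.171 and 0.251, while daf-16(m26) replicate 1 correlated at 0.193 with wild type replicate 3. The 2 daf-16(m26) libraries deviate from their mean by mirrored amounts, so these correlations cannot decide on pairing. Replicate 2 lay below replicate 1 on the main axis in 9 of 9 genotypes. All 25 genes stayed called with the block.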
